A study of Mus musculus with 14 samples.

Results

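The 10 genes described here encode enzymes and metal-binding proteins that keep reactive oxygen, zinc, copper and iron in check, and they were picked by symbol out of the 55422 entries of the deposited count table. They were the superoxide dismutases Sod1 and Sod2, the catalase Cat, the glutathione peroxidases Gpx1 and Gpx4, the metallothioneins Mt1, Mt2 and Mt3, and the ferritin subunits Fth1 and Ftl1. The libraries came from mouse brainstem and addressed how pathogenic tau in the locus coeruleus (LC), a brainstem nucleus whose neurons release noradrenaline across the forebrain, alters the RNA of its neurons. All 7 mice had the genotype TH-Cre;Slc6a2-eGFP/Rpl10a on a C57Bl/6 background, so controls too carried both transgenes: a tyrosine hydroxylase (Th) promoter drives Cre recombinase in the first, and the second is a ribosomal protein fused to green fluorescent protein under control of the noradrenaline transporter gene. At 2 to 3 months of age, 4 mice (B, C, L and M) were infused in the LC with P364S mutant human tau and 3 (H, I and K) with EYFP, a fluorescent control protein. Each mouse gave a total brainstem homogenate (pre-IP) and an immunoprecipitate of the tagged ribosomes (IP), which makes 4 groups: EYFP pre-IP (n = 3), tau pre-IP (n = 4), EYFP IP (n = 3) and tau IP (n = 4). Noradrenergic cells other than those of the LC may carry the tag as well, and the homogenate held every cell type of the block.

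Superoxide dismutases turn superoxide into hydrogen peroxide, Sod1 in the cytosol and Sod2 in mitochondria, and catalase and the glutathione peroxidases then remove the peroxide. Metallothioneins are small cysteine-rich proteins that bind zinc and copper, and ferritin is a shell of heavy (Fth1) and light (Ftl1) chains that stores iron. Noradrenergic neurons make hydrogen peroxide when monoamine oxidase breaks down their transmitter, and they hold iron and copper bound to neuromelanin in species that form it. In brain, Mt1 and Mt2 are best known from astrocytes, Mt3 from neurons and astrocytes, and ferritin from oligodendrocytes and microglia.

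Both ferritin mRNAs carry an iron responsive element in their 5′ untranslated region, a hairpin to which iron regulatory proteins bind when iron is scarce, blocking translation. The elements are shown because these libraries contrast total RNA with RNA bound to ribosomes. They lie at chr19:9982732-9982761 (Fth1, plus strand) and chr7:45459778-45459807 (Ftl1, minus strand) in GRCm38, read 5′ to 3′, with the 6-base loop in capitals. The search that found them required 5 base pairs in the upper stem, so that number is not a result.
Fth1: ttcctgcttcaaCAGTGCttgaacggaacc
Ftl1: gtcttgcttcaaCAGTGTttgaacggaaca

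Gpx1 and Gpx4 are selenoproteins, whose mRNAs contain an in-frame TGA codon that is read as selenocysteine. That codon was number 47 of 201 in Gpx1 (shown with its flanks, chr9:108339439-108339465, plus strand) and number 73 of 197 in Gpx4 (chr10:80054725-80054751, plus strand, transcript Gpx4-202), with the TGA in capitals.
Gpx1: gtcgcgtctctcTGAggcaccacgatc
Gpx4: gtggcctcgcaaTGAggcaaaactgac

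The metallothionein coding sequences (spliced, GRCm38 chromosome 8, plus strand) are printed with every cysteine codon in capitals, since these residues hold the metal and since close copies could share reads. Each had 20 cysteine codons, out of 61 codons in Mt1 and Mt2 and 68 in Mt3. Identity over the aligned bases was 79.6% between Mt1 and Mt2, 73.7% between Mt1 and Mt3 and 75.3% between Mt2 and Mt3, while the ferritin chains shared 65.0%.
Mt1: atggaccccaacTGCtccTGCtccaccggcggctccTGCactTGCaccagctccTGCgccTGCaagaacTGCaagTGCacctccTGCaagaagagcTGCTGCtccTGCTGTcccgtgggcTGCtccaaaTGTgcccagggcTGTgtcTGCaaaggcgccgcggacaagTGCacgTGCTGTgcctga
Mt2: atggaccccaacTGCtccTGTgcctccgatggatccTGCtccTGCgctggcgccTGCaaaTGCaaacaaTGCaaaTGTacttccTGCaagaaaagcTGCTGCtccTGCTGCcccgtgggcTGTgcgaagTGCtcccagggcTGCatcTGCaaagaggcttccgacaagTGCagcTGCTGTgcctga
Mt3: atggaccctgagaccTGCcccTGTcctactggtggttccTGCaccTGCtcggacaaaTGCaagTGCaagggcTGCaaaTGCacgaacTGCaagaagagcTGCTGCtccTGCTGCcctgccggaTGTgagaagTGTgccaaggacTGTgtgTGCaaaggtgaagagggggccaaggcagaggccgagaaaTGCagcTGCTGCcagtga

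The 3 metallothionein genes are neighbours on chromosome 8 and differ in the letters around their RefSeq starts. The metal response element, the site of the zinc sensor MTF1, was searched as TGCACNC and TGCGCNC on both strands, from 250 bases before to 50 bases after each RefSeq start (GRCm38.p6). Mt2 held 4 matches, Mt1 held 3 and Mt3 held 1, and the windows of the other 7 genes held 0. Of these matches, 3 in Mt2, 1 in Mt1 and 0 in Mt3 lay wholly before the RefSeq start. The windows ended at position 94172667 (Mt2) and 94179138 (Mt1), whereas the coding sequences began at 94172848 and 94179311. The bases between were not searched, so these are counts for the windows and not for whole promoters. Of 32851 such windows, 25.7% held at least 1 match, 1.97% at least 3 and 0.517% at least 4. The antioxidant response element, searched as TGACNNNGC, had 1 match in Mt2 and 1 in Sod1, against at least 1 match in 12.4% of all windows, and no match of either motif overlapped the other. The 250 bases before the start are printed for the inducible pair, with metal response matches in capitals, at chr8:94172368-94172617 (Mt2) and chr8:94178839-94179088 (Mt1), both on the plus strand.
Mt2: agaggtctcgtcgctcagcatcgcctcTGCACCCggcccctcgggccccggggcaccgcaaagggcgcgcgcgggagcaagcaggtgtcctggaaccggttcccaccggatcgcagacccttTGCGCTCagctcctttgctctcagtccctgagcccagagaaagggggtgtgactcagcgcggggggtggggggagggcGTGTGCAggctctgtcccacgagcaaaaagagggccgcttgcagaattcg
Mt1: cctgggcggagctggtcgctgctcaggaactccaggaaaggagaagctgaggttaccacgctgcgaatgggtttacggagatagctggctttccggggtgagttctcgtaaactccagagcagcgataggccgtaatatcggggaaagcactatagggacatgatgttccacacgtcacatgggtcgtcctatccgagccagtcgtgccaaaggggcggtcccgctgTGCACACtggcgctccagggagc

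Levels are given as CPM, the counts of a gene per 1e6 counts of its library, from library totals of 41843489 to 65664551. At that depth 3 counts correspond to 0.0457 to 0.0717 CPM, for counting error only, since PCR copies of a molecule could not be told from separate molecules. The noradrenergic enrichment of the IP differed between the treatments. The summed CPM of 12 noradrenergic markers was 409 to 481 in the 7 pre-IP libraries, 564 to 642 in EYFP IP and 1070 to 7168 in tau IP, and their first gene Dbh, the enzyme that makes noradrenaline, ran from 29.2 to 56.1 CPM in EYFP IP and from 128 to 1292 in tau IP. The tau IP library of animal B stood apart with the fewest genes detected (20813), the highest noradrenergic and the lowest glial sums. The RNA integrity number was 4.2 in the EYFP IP of animal I and 7.7 to 9 elsewhere. The RNA concentration differed with fraction and treatment. It was 11.4 to 29.9 ng per microlitre in tau pre-IP and 13.9 to 21.1 in EYFP pre-IP. In EYFP IP it was 0.7 to 2.8, and in tau IP 0.1 to 0.8, with 0.1 in animal B. The part of RNA amount in the values below was not tested. Both EYFP libraries of animal K held 398 or 408 counts of the human tau construct, against 2 to 18 in animals H and I and at least 3527 in tau animals. Animal M, labelled female, had 674 counts of Y-linked genes in pre-IP and 1153 in IP. Its counts of Xist, a transcript of female cells, were 0 in pre-IP and 21 in IP. The other libraries labelled female had 16 to 120 counts of Xist. Results without each of these animals are given where they changed a call.

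The 10 genes together took 1.10% to 2.03% of all counts of a library, most of it Fth1. To compare genes, CPM was divided by the exonic length in kb. That length joins all annotated exons of a gene and can exceed its main mRNA. It was 10008 bases for Sod2, 3970 for Sod1 and 1441 for Gpx1, so the order between genes depends on the annotation. Before division, the mean pre-IP CPM was 190 for Sod1, 241 for Sod2 and 273 for Gpx1. Over the 7 pre-IP libraries Fth1 was highest, with a median of 3478 CPM per kb (lowest 2849, highest 3704), and its range lay apart from that of the next gene. Gpx4 (median 689 CPM per kb), Mt3 (681) and Mt1 (662) followed with overlapping ranges, and then Ftl1 (251) and Gpx1 (197), which overlapped each other. Sod1 came next at 48.7 CPM per kb with a range apart from both neighbours. Sod2 (24.7), Cat (21.7) and Mt2 (17.3) closed the order with overlapping ranges, and in the IP libraries Mt2 and Cat exchanged places. Heavy and light ferritin chains were thus measured at a median of 3478 and 251 CPM per kb of the same libraries.

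**Figure D1:**
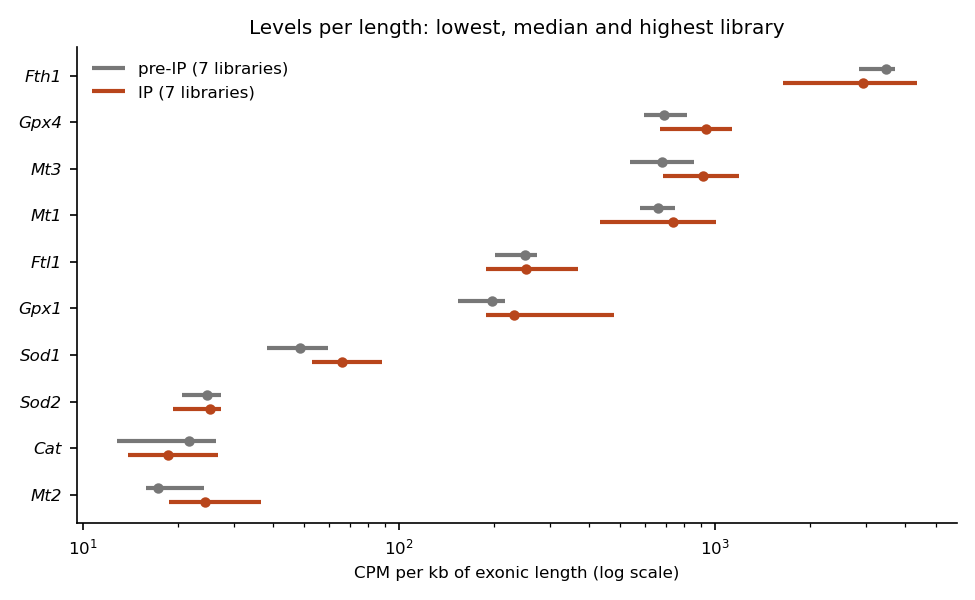
Levels of the 10 genes as CPM per kb of exonic length (x axis, log scale), with a line from the lowest to the highest library and a point at the median for the 7 pre-IP and the 7 IP libraries. Fth1 lies apart at the top, and Sod2, Cat and Mt2 share the bottom of the order.

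Some counts may be affected by sequence shared with other genes, because the counting rules for strand and for reads with several matches were not given in the sources used here. Opposite-strand exons of Gm45774 cover 73.5% of the exonic bases of Mt2 (432 of 588) and those of Gm10252 cover 26.5% of Ftl1 (355 of 1340). Without strand, reads from these stretches cannot be assigned to either gene, so the levels of Mt2 and Ftl1 relative to Mt1 and Fth1 are uncertain. Gpx4-ps2, a transcript 99.7% identical to Gpx4 over 762 bases, had 38153 counts over all libraries, and the near copies of Gpx4 together came to 3.74% of its own counts. Gene copies with at least 95% identity over 100 bases came to 1.68% of the counts of Ftl1 (13 genes), 0.236% of Sod1 and 0.147% of Fth1, and none was found for Cat, Gpx1, Mt1 or Mt3. Sod2 shared stretches of that kind with 25 other genes. The longest, with a transcript of Rps6ka2, was 3110 bases at 98.3% identity. The whole counts of those genes came to 397% of the counts of Sod2, so the level of Sod2 is uncertain too. Reads with several matches may have been left uncounted, so these shares do not bound what a gene lost.

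The IP was first compared with the pre-IP, which asks whether an mRNA is more abundant on the captured ribosomes than in the tissue block. In a fit of the 14 libraries that also held an additive term for treatment, 5 of the 10 transcripts were higher in IP: Sod1, Gpx1, Gpx4, Mt2 and Mt3, by 1.32-fold (Gpx4) to 1.48-fold (Gpx1). Sod2, Cat, Mt1, Fth1 and Ftl1 did not pass the test. Of all 20495 genes tested, 28.1% passed at an edgeR adjusted p under 0.05 and 14.5% passed as higher in IP, which is the background for the 5 of 10. For 0 of the 10 did the 7 IP libraries lie wholly above the 7 pre-IP libraries, beside 3.42% of all genes. With the animal as a block, the same 5 passed, beside 14.2% of all genes as higher in IP. In tau animals alone 4 of the 10 passed (10.4% of all genes as higher), all but Mt2 of those 5, whose adjusted p was then 0.0597. In EYFP animals alone 0 of the 10 passed (3.96% of all genes as higher).

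Sod1 (ENSMUSG00000022982.10, chromosome 16, 90220754 to 90226329, plus strand), the copper-zinc enzyme of the cytosol, had 151, 193 and 174 CPM in the EYFP pre-IP of animals H, I and K and 211, 231 and 230 CPM in their IP. In tau animals B, C, L and M it had 237, 199, 196 and 184 CPM in pre-IP and 319, 350, 263 and 283 CPM in IP. Every animal had more in its IP than in its pre-IP, and the tau IP libraries all lay above every other library. The log2 fold change of IP over pre-IP was 0.53 (SE 0.11, edgeR adjusted p 0.00235).

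Gpx1 (ENSMUSG00000063856.7, chromosome 9, 108338903 to 108340343, plus strand), the peroxidase of cytosol and mitochondria, had 245, 312 and 221 CPM in EYFP pre-IP (H, I and K) and 304, 274 and 271 CPM in EYFP IP. Its tau values were 310, 284, 306 and 230 CPM in pre-IP (B, C, L and M) and 691, 487, 452 and 332 CPM in IP. The tau IP libraries were the highest, B most of all and M closest to the rest, and animal I had less in IP than in pre-IP. IP over pre-IP gave 0.57 as log2 fold change (SE 0.18, adjusted p of edgeR 0.0290). This call was lost without animal H (adjusted p 0.0568), C (0.0938) or L (0.0775).

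Gpx4 (ENSMUSG00000075706.10, chromosome 10, 80047166 to 80056439, plus strand), which reduces lipid peroxides in membranes, had 1187, 1314 and 1027 CPM in EYFP pre-IP and 1619, 1180 and 1154 CPM in EYFP IP of H, I and K. Tau animals B, C, L and M had 1404, 1132, 1251 and 1064 CPM in pre-IP and 1949, 1620, 1643 and 1579 CPM in IP. The tau IP values lay above all pre-IP values, whereas among EYFP IP libraries only that of H did. The log2 fold change was 0.40 (SE 0.12, edgeR adjusted p 0.0228), and the adjusted p moved to 0.0774 without H, 0.0759 without C, 0.0652 without L and 0.0556 without M.

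Mt3 (ENSMUSG00000031760.9, chromosome 8, 94152607 to 94154146, plus strand), the metallothionein of brain, had 674, 757 and 576 CPM in EYFP pre-IP and 979, 732 and 759 CPM in EYFP IP (H, I and K). In tau animals it had 918, 728, 726 and 594 CPM in pre-IP and 1268, 1250, 1023 and 976 CPM in IP (B, C, L and M). Only in animal I was the IP value below the pre-IP value. The log2 fold change was 0.52 (SE 0.13, edgeR adjusted p 0.00650).

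Mt2 (ENSMUSG00000031762.7, chromosome 8, 94172664 to 94173568, plus strand), a metallothionein induced by zinc and glucocorticoids, had the lowest counts of the set, 452 to 1122 per library. Its CPM was 10.8, 10.1 and 9.30 in EYFP pre-IP and 16.3, 10.99 and 14.3 in EYFP IP of H, I and K, and 9.71, 12.4, 14.2 and 10.2 in tau pre-IP and 13.8, 16.2, 14.3 and 21.5 in tau IP of B, C, L and M. All 7 animals had more in IP than in pre-IP, though by almost nothing in L. The log2 fold change was 0.52 (SE 0.13, edgeR adjusted p 0.00727).

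Mt1 (ENSMUSG00000031765.8, chromosome 8, 94179082 to 94180327, plus strand), the neighbour of Mt2 and induced with it, had 830, 818 and 719 CPM in EYFP pre-IP and 1081, 810.5 and 941 CPM in EYFP IP. Tau pre-IP held 931, 777, 893 and 825 CPM, and tau IP held 538, 914, 838 and 1256 CPM in B, C, L and M. The tau IP group thus contained both the lowest and the highest library of the series. Its log2 fold change of IP over pre-IP was 0.17 (SE 0.13, edgeR adjusted p 0.349).

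Fth1 (ENSMUSG00000024661.7, chromosome 19, 9980598 to 9985098, plus strand), the chain that oxidises iron, showed the same spread. Its CPM was 12797, 12065 and 9882 in EYFP pre-IP, 12341, 10186 and 11420 in EYFP IP, 11856, 10224, 12189 and 12850 in tau pre-IP, and 5702, 9400, 9146 and 15112 in tau IP, in the same order of animals. Animal B was the lowest of all 14 libraries and animal M the highest. The log2 fold change of IP over pre-IP was -0.13 (SE 0.14, edgeR adjusted p 0.531).

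Ftl1 (ENSMUSG00000050708.16, chromosome 7, 45457944 to 45459884, minus strand), the chain that helps iron to form its mineral core, had 366, 336 and 269 CPM in EYFP pre-IP and 493, 331 and 327 CPM in EYFP IP. Tau pre-IP held 350, 305, 351 and 320 CPM and tau IP 253, 348, 338 and 393 CPM. Animal B was again lowest in tau IP and animal M highest, and the highest library of all was the IP of H. IP over pre-IP gave 0.15 in log2 (SE 0.11, edgeR adjusted p 0.346).

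Sod2 (ENSMUSG00000006818.5, chromosome 17, 13006846 to 13040063, plus strand), the manganese enzyme, lay between 193 and 275 CPM in the 14 libraries. The medians were 215 CPM in EYFP pre-IP, 255 in tau pre-IP, 253 in EYFP IP and 259 in tau IP, and all 4 groups overlapped. Its log2 fold change of IP over pre-IP was 0.08 (SE 0.12, edgeR adjusted p 0.651).

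Cat (ENSMUSG00000027187.10, chromosome 2, 103453849 to 103485160, minus strand), the peroxisomal enzyme that splits hydrogen peroxide, had IP to pre-IP ratios on opposite sides of 1 with tau and with EYFP. Its CPM was 39.0, 33.4 and 69.1 in EYFP pre-IP and 48.6, 62.5 and 69.7 in EYFP IP (H, I and K), and 57.4, 58.1, 38.8 and 56.6 in tau pre-IP and 36.5, 45.1, 36.3 and 50.8 in tau IP (B, C, L and M). All 3 EYFP animals had more in IP than in pre-IP, by very little in K, and all 4 tau animals had less. This pattern of signs was found in 0.810% of the 20495 genes tested. The summed astrocyte, microglial, other-neuron, vascular, and ependymal and choroid plexus markers had the same signs. The noradrenergic, oligodendrocyte and blood sums did not. Over all libraries the log2 fold change was -0.00 (SE 0.18, edgeR adjusted p 0.999), and the test of the difference between treatments did not pass.

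**Figure D2:**
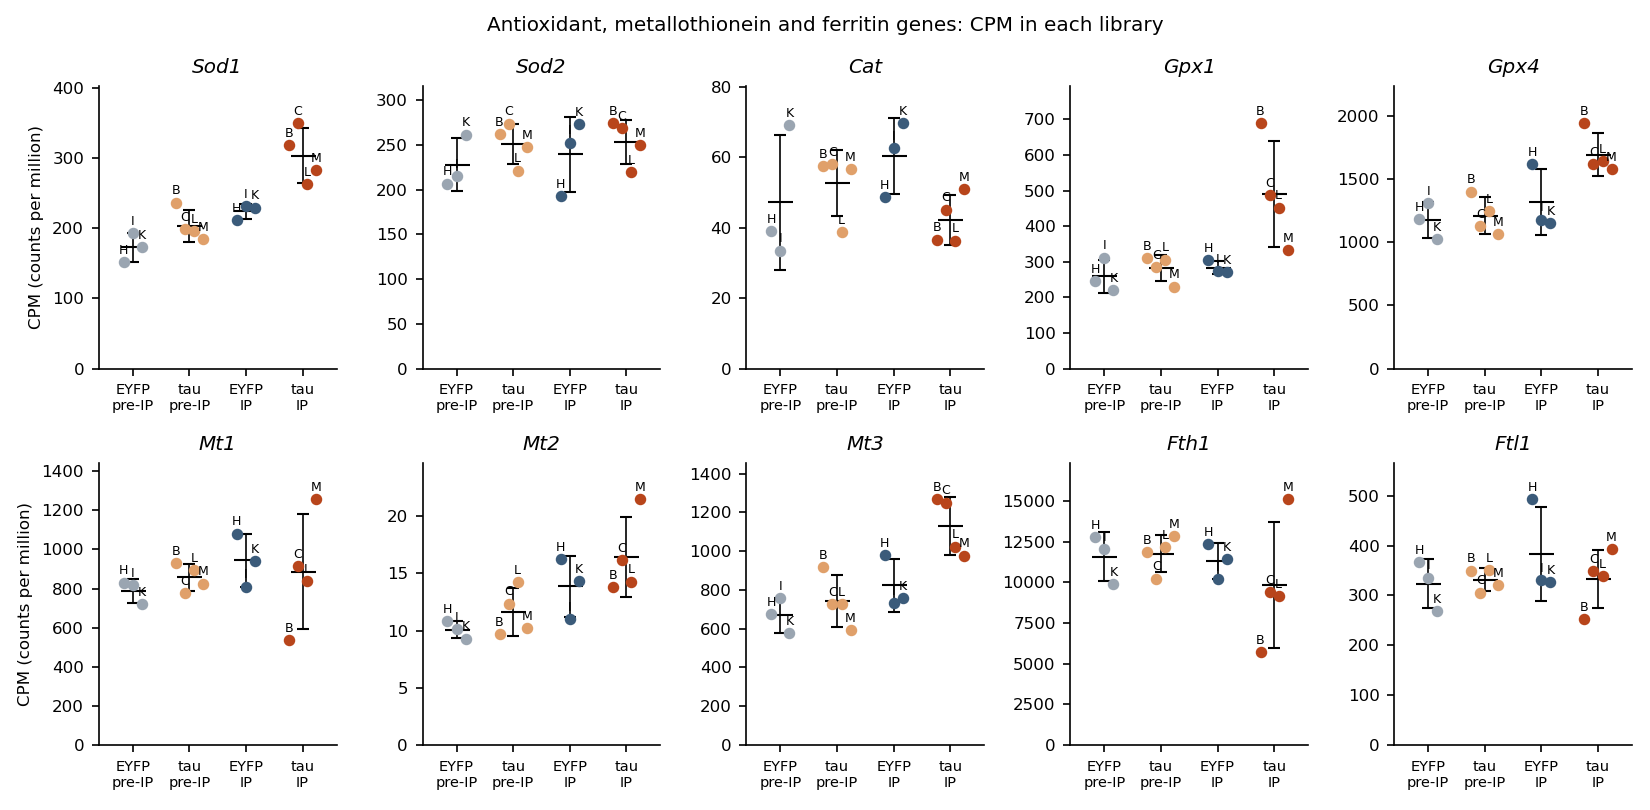
CPM (y axis, linear from 0) of each gene in each library, with the animal letter at each point and the mean and SD as black bars for EYFP pre-IP (n = 3), tau pre-IP (n = 4), EYFP IP (n = 3) and tau IP (n = 4). The 4 tau IP libraries lie above all others for Sod1 and Gpx1, and the tau IP libraries of B and M lie far apart for Mt1 and Fth1.

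Ratios of IP to pre-IP were then taken within each animal, so that both values came, by the labels, from the same mouse. Sod1 and Mt2 were higher in IP in all 7 animals, against 10.1% of the genes tested. In all 4 tau animals this held for 5 of the 10 genes (Sod1, Gpx1, Gpx4, Mt2 and Mt3), against 17.7% of genes. The mean log2 ratio of Gpx1 was 0.76 ± 0.29 (SD, n = 4) with tau and 0.14 ± 0.28 (SD, n = 3) with EYFP. That of Gpx4 was 0.49 ± 0.07 in tau and 0.15 ± 0.30 in EYFP animals, with overlapping ranges. Mt3 had 0.61 ± 0.16 and 0.30 ± 0.31, and Sod1 0.57 ± 0.19 and 0.38 ± 0.11, tau before EYFP.

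Fth1, Mt1 and Ftl1 had widely scattered ratios in tau animals. For Fth1 the log2 ratio was -1.06 in B, -0.12 in C, -0.41 in L and 0.23 in M, for Mt1 -0.79, 0.24, -0.09 and 0.61, and for Ftl1 -0.47, 0.19, -0.05 and 0.29. Animal B was lowest and animal M highest for each. The log2 ratio of the summed noradrenergic markers was 4.05 in B, 3.29 in C, 3.08 in L and 1.28 in M, and 0.42 to 0.49 in EYFP animals. That of 10 oligodendrocyte markers was -1.69, -0.68, -0.54 and -0.32 in B, C, L and M and between -0.17 and -0.00 in EYFP animals, and for 10 microglial markers it was -1.11, -0.38, -0.37 and -0.05 in tau and 0.06 to 0.19 in EYFP animals. For 10 astrocyte markers it was -1.04, -0.22, -0.07 and -0.10 in tau and 0.02 to 0.47 in EYFP animals. Cat, the ferritins and Mt1 were thus lowest, relative to pre-IP, in animal B. There every marker list but the noradrenergic was lowest too, among them other neurons (-1.19) and ependymal and choroid plexus markers (-1.34). The part of cell composition in these ratios was not tested. In such bulk samples, fewer cells of a type and less RNA per cell cannot be told apart.

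**Figure D3:**
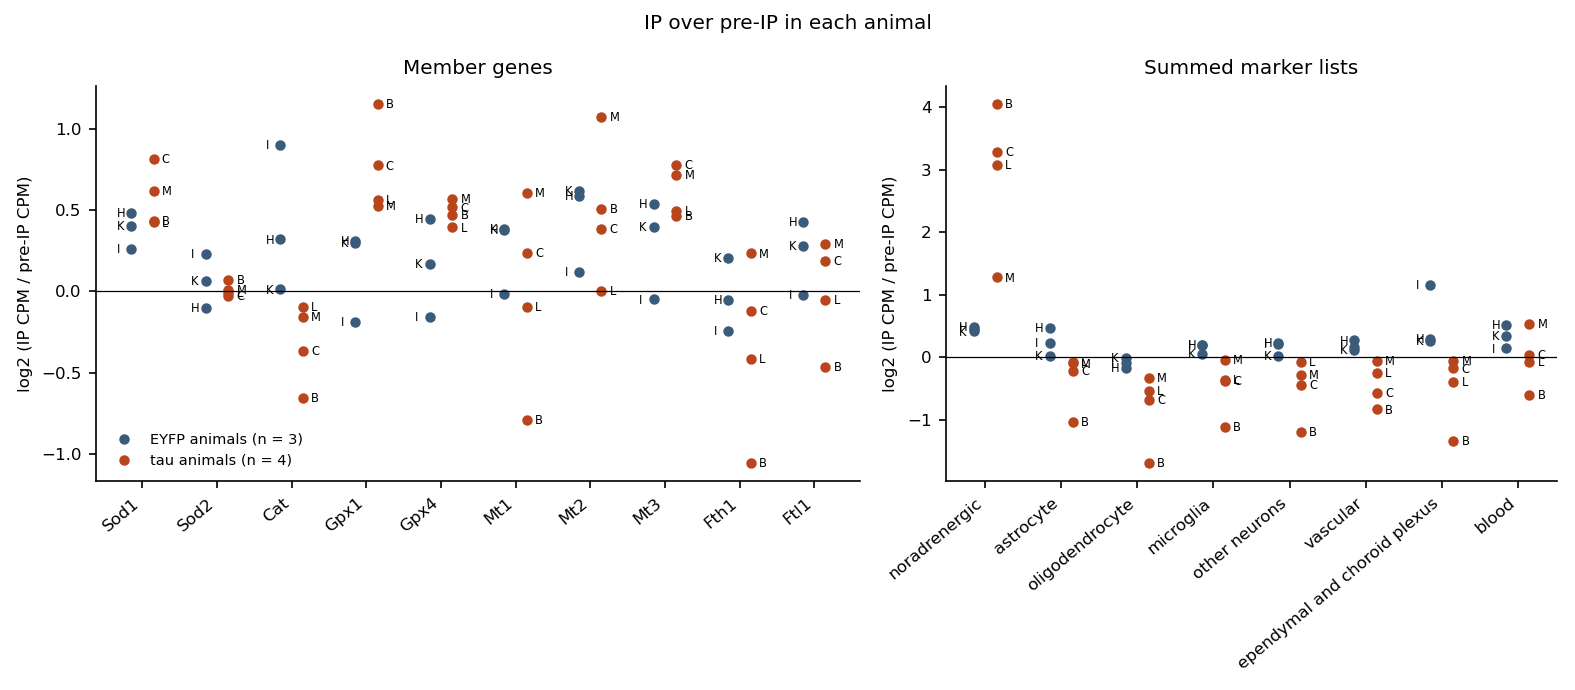
Log2 ratio of IP to pre-IP CPM (y axis) in each EYFP (n = 3) and tau animal (n = 4), labelled by animal letter, for the 10 genes (left) and for the summed CPM of 8 marker lists (right, with a wider scale). All 5 genes with a called IP excess have every tau animal above 0, and animal B is the lowest tau animal for Cat, Mt1, Fth1 and Ftl1 and for every marker list but the noradrenergic.

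Tau was next compared with EYFP within the IP, which asks for a difference in the RNA on captured ribosomes. None of the 10 genes passed the edgeR test, as 0 of the 19472 genes tested did (0% called). At an unadjusted p under 0.05, 4 of the 10 had higher values in tau IP, beside 7.93% of all genes in that direction. The log2 fold change was 0.92 for Gpx1 (SE 0.26, unadjusted p 0.00543, edgeR adjusted p 0.318), 0.55 for Sod1 (SE 0.16, unadjusted p 0.00707, adjusted p 0.318), 0.57 for Mt3 (SE 0.18, unadjusted p 0.0102, adjusted p 0.318) and 0.48 for Gpx4 (SE 0.18, unadjusted p 0.0216, adjusted p 0.342). Only for Gpx1 and Sod1 did the groups not overlap, beside 6.38% of all genes with that property and higher values in tau. For Mt3 a single pair crossed, 976 CPM in tau animal M and 979 CPM in EYFP animal H. The median log2 fold change of the 10 genes was 0.27, beside -0.08 over all genes tested.

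The Wald test of DESeq2 called Gpx1 with a log2 fold change of 0.96 (adjusted p 0.0336) and none of the other 9 genes, beside 1.60% of all genes as higher in tau. Over the other alternatives the edgeR or limma adjusted p of Gpx1 stayed above the threshold. Within the libraries numbered up to 11 (tau animals B and C, EYFP animals H and I), the difference of mean log2 CPM was 1.01 for Gpx1, 0.60 for Sod1, 0.57 for Mt3 and 0.36 for Gpx4. Within those numbered 17 and above (tau animals L and M, EYFP animal K alone) it was 0.51, 0.25, 0.40 and 0.48 for the same genes. Of the other members, Mt1 gave -0.42 and 0.13, Fth1 -0.61 and 0.04, Ftl1 -0.44 and 0.16, and Cat -0.44 and -0.70. The noradrenergic sums given above differed between the same groups, and their part in these values was not tested. Ribosomal protein genes took 1.46% to 1.76% of the counts in EYFP IP and 1.93% to 2.39% in tau IP.

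In the homogenate, none of the 10 genes differed between the treatments beyond the threshold. The edgeR test and the Wald test of DESeq2 each called 0 of the 10 genes and 0 of 19197 in all (0% called), and at an unadjusted p under 0.05 it gave 0 of 10 beside 2.84% of all genes. The log2 fold changes of tau over EYFP pre-IP ran from 0.05 (Fth1, SE 0.13) to 0.25 (Sod1, SE 0.14, unadjusted p 0.0990), all with adjusted p of 1.0, and the groups overlapped for all 10 genes, beside 1.33% of all genes that lay wholly higher in tau. The median over the 10 genes was 0.15, beside -0.00 over all genes.

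The interaction of treatment and fraction asks whether the IP excess itself differed between tau and EYFP animals. It passed for 0 of the 10 genes and 0 of 20495 overall (0% called), and at an unadjusted p under 0.05 for Gpx1 alone among the members, beside 5.97% of all genes. The Wald test of DESeq2 also called 0 of the 10, beside 0.229% of all genes as higher in tau. The interaction was 0.79 for Gpx1 (SE 0.32, unadjusted p 0.0237, edgeR adjusted p 0.807), 0.43 for Gpx4 (SE 0.23, adjusted p 0.823), 0.42 for Mt3 (SE 0.25, adjusted p 0.825) and 0.31 for Sod1 (SE 0.22, adjusted p 0.847). For Cat it was -0.57 (SE 0.35, unadjusted p 0.122, edgeR adjusted p 0.833). So the calls of IP against pre-IP in tau animals and their lack in EYFP animals do not by themselves show a difference between the treatments.

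**Figure D4:**
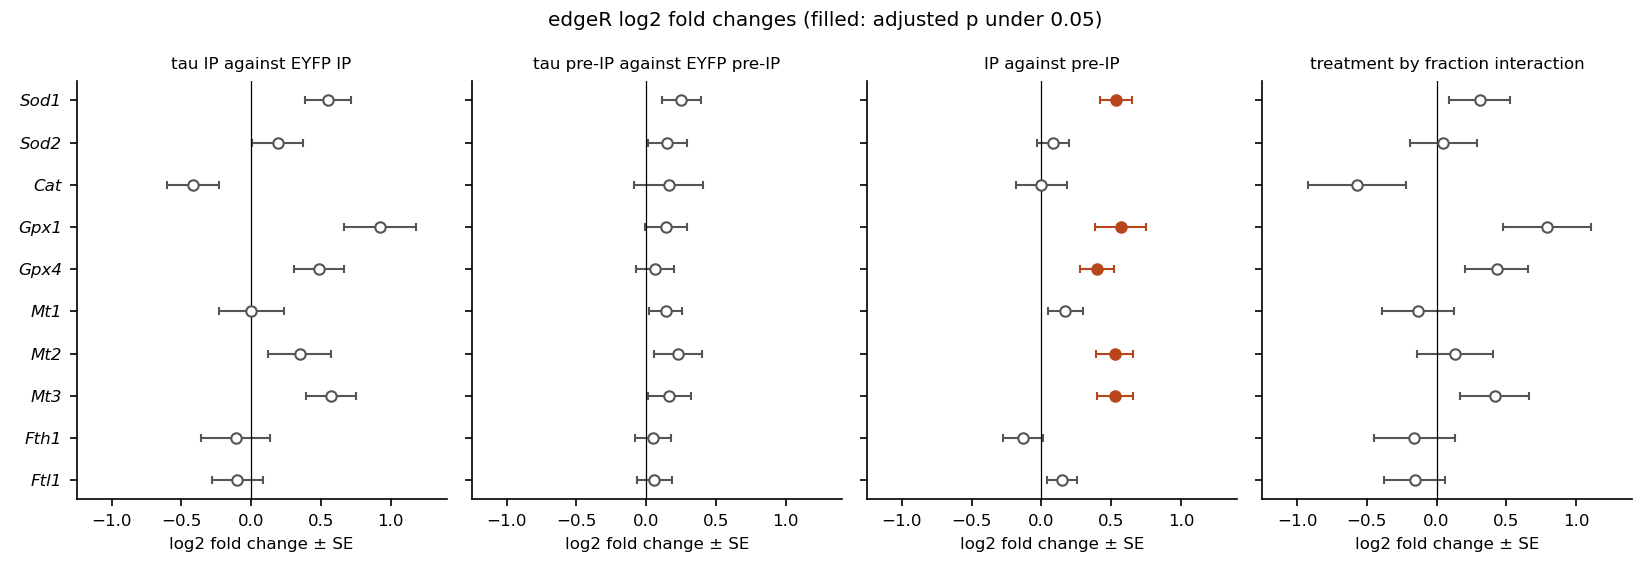
Log2 fold change with its standard error (x axis) of each gene in the 4 edgeR comparisons, tau against EYFP in IP, the same in pre-IP, IP against pre-IP, and their interaction. Filled points passed an adjusted p under 0.05, and only IP against pre-IP holds any, for Sod1, Gpx1, Gpx4, Mt2 and Mt3.

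How far members varied together over the 14 libraries was measured by Pearson's r of log2 CPM, a description over libraries that share treatment and fraction. Gpx4 and Mt3 had r = 0.96, Gpx1 and Mt3 0.93, Gpx1 and Gpx4 0.93, and Sod1 and Mt3 0.91. Mt1 had 0.78 with Ftl1 and 0.74 with Fth1, but 0.11 with Mt3, and Gpx1 and Fth1 had -0.67. The ferritin chains Fth1 and Ftl1 had 0.50 with each other. Mt2 had 0.69 with Mt3 and 0.54 with Mt1, and the highest r of Cat with any member was 0.54, with Sod2. Among 9696 genes with a mean of at least 10 CPM, those most like Sod1 were Rps13 (r = 0.98), Chchd2 (0.98) and Cox5b (0.98), those most like Mt3 were Uqcr11 (0.99), Uqcc2 (0.99) and Timm13 (0.98), and those most like Gpx1 were Psme1 (0.99), Psme2 (0.99) and Ndufv3 (0.99). Gpx4 was closest to its own near copy Gpx4-ps2 (0.99), then to Supt4a (0.98) and Rpl10a (0.98), a gene whose count cannot be split here from the tagged transgene. For Fth1 they were Tsc22d4 (0.95), Slx1b (0.92) and Cela1 (0.91), for Ftl1 Gm50024 (0.93), Inf2 (0.93) and Akap5 (0.88), for Mt1 Arl5c (0.93), 2010001A14Rik (0.91) and S100a13 (0.90), and for Mt2 Abhd11os (0.86), Trappc6a (0.85) and Gm42067 (0.83). Sod2 was closest to Leng1 (0.96), Dnajc9 (0.93) and Ostf1 (0.93), and Cat to Ckb (0.92), Dync1i1 (0.92) and Hsd17b4 (0.91), a peroxisomal enzyme like catalase.

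Other genes of these pathways were examined in lists. Of all genes tested, 14.5% passed as higher and 13.6% as lower in IP (28.1% in both directions), which is the background for each count. Of 24 further peroxide and thioredoxin enzymes, 7 were higher and 1 lower in IP than in pre-IP, a share above that background for higher and under it for lower. The peroxiredoxins Prdx4, of the endoplasmic reticulum, and Prdx5, of mitochondria and peroxisomes, were 41.96 ± 3.82 and 816.8 ± 62.9 CPM in IP against 30.3 ± 2.6 and 635 ± 63 CPM in pre-IP (SD, n = 7 each), log2 fold changes of 0.51 (SE 0.10, edgeR adjusted p 0.00136) and 0.41 (SE 0.10, adjusted p 0.00482). Srxn1, sulfiredoxin, which repairs oxidised peroxiredoxins, fell by 0.38 in log2 (SE 0.08, edgeR adjusted p 0.00246). The median of this list was 0.20, beside 0.28 for the 10 genes and -0.00 for all genes.

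Of 23 genes of glutathione metabolism and the transcription factor Nrf2, 3 were higher and 2 lower in IP, under the background in both directions. Gstm5, a glutathione transferase, was among those higher, with 0.55 as log2 fold change (SE 0.12, edgeR adjusted p 0.00264). Of 22 tested genes of zinc and copper handling, 3 were higher and 2 lower, again under the background in both directions. The zinc exporter Slc30a1 was at 3.50 ± 0.87 CPM in IP and 1.77 ± 0.22 CPM in pre-IP (SD, n = 7 each), 1.02 as log2 fold change (SE 0.20, edgeR adjusted p 0.00166). Of 20 tested genes of iron handling, 7 were higher and 5 lower, shares above the background in both directions. The metal importer Slc39a14 stands in both the zinc and the iron list and is counted among the lower genes of both. Pcbp2, which carries iron to ferritin, was higher by 0.59 (SE 0.10, edgeR adjusted p 0.000673), whereas the iron importer Slc11a2 fell by 0.60 (SE 0.14, adjusted p 0.00508) and the mitochondrial iron carrier Slc25a37 by 0.51 (SE 0.13, adjusted p 0.00727). Of 9 genes of selenoprotein synthesis, 0 were higher and 2 lower, a share under the background for higher and above it for lower. Both directions together lay under the 28.1% of all genes. Scly, which recovers selenium from selenocysteine, fell by 0.53 (SE 0.13, edgeR adjusted p 0.00715). Medians were 0.10, -0.15, -0.04 and -0.08 for these 4 lists in turn.

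No gene of the 5 lists passed the edgeR test of tau against EYFP in IP or in pre-IP. The smallest p in IP among the peroxide enzymes was that of Gpx3, the secreted glutathione peroxidase, at 348 to 2894 CPM in tau IP and 187 to 235 CPM in EYFP IP, or 3.03 as log2 fold change (SE 0.60, edgeR adjusted p 0.318). Sod3, the extracellular superoxide dismutase, had -0.88 (SE 0.33, edgeR adjusted p 0.350). Among the other lists the smallest p in each direction belonged to Gstp1 (0.62, SE 0.20) and Nfe2l2, the gene of Nrf2 (-0.76, SE 0.23), to the copper chaperone Atox1 (0.70, SE 0.22) and the zinc transporter Slc39a12 (-0.50, SE 0.23), to Iscu (0.44, SE 0.21) and Aco1, which encodes iron regulatory protein 1 (-0.59, SE 0.17), and to Trnau1ap (0.35, SE 0.15) and Lrp8 (-0.62, SE 0.33). Their adjusted p in the edgeR fit lay between 0.318 and 0.481.

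In pre-IP the genes picked by the same rule were Msrb1 (0.19, SE 0.15) and Glrx5 (-0.15, SE 0.16), Gstp1 (0.20, SE 0.15) and Gclm (-0.72, SE 0.23), Slc39a7 (0.16, SE 0.16) and Slc30a4 (-0.61, SE 0.22), Steap2 (0.06, SE 0.17) and Slc25a37 (-0.32, SE 0.17), and Eefsec (0.09, SE 0.15) and Lrp8 (-0.55, SE 0.21), all at 1.0 for the adjusted p of edgeR. Gclm encodes a subunit of the enzyme that starts glutathione synthesis. It had 35.1 ± 10.6 CPM in tau pre-IP (SD, n = 4) and 58.0 ± 12.7 CPM in EYFP pre-IP (SD, n = 3).

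**Figure D5:**
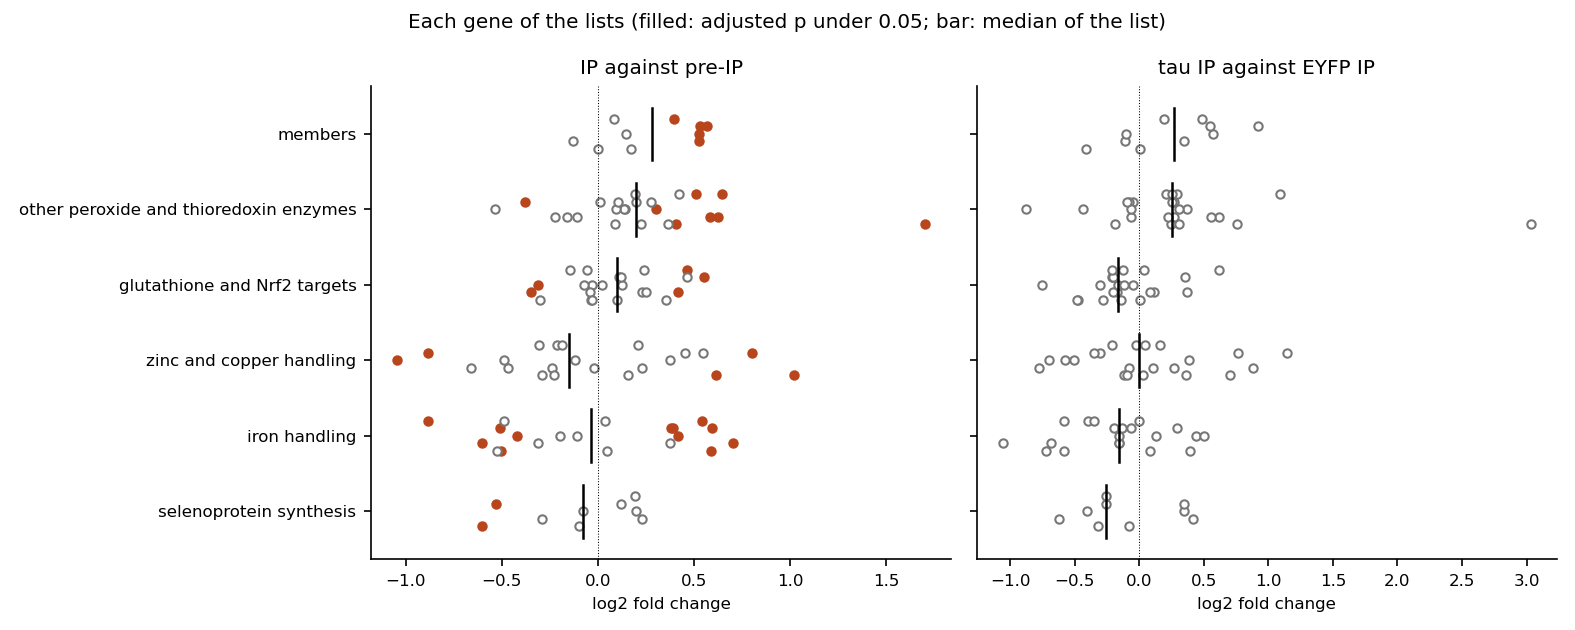
Log2 fold change (x axis) of each gene of the 10 described genes ("members") and of 5 further lists, for IP against pre-IP (left) and tau IP against EYFP IP (right), with a bar at each list's median and filled points for an adjusted p under 0.05. Filled points occur in every list on the left and in none on the right.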

How the data were processed

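RNA was measured in 14 libraries, an IP and a pre-IP of each of 7 mice, made from polyadenylated RNA with SMART-Seq v4 and Nextera XT kits, per the labels' protocols. The authors deposited whole-number counts per gene, not normalized, with FastQC, Trim Galore, STAR, featureCounts and the build GRCm38 (mm10) named in the submitters' processing notes; versions, strand use and multimapping are not given in the sources used here. RNA integrity scores, RNA concentrations, and percent values for read quality and GC stand in a deposited sheet of the libraries.

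Counts were tested by edgeR 4.0.16 (R 4.3.3) with its quasi-likelihood test, filterByExpr, TMM scaling and Benjamini-Hochberg adjustment over all genes at a threshold of 0.05, after a check on simulated data. In that check, log2 changes of 1 were recovered for 25% of changed genes in tau IP against EYFP IP and 13% in the interaction. The share was 59% for tau against EYFP in pre-IP and 75% for IP against pre-IP. A gene that was not called is thus not shown to be unchanged. The SE is the log2 fold change over the square root of F. All 10 genes passed the filter. Animal letters pair the fractions: the deviations of an animal's libraries from their group means correlated with r from 0.15 to 0.36, so the fit with the animal as a block was also run. Other alternatives were DESeq2 1.42.0, limma 3.58.1 with voom quality weights, other scalings and filters, the library-number range as covariate, and leaving out each animal.

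The members and gene lists were chosen with earlier results of these data known. From each list beside the 10 genes, the rule named up to 2 genes per direction past the threshold without overlap in IP against pre-IP, and the gene with the smallest p per direction in each tau against EYFP comparison. Likeness was ranked by Pearson's r of log2 CPM (TMM scaling, prior count of 2). Promoter windows are from RefSeq, where 10 of 10 genes matched; other sequences are from GENCODE release M21 and its genome.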

Additional observations from a re-analysis of the deposited data

Results flagged for a closer look

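Cat was singled out because its log2 IP to pre-IP ratio was above 0 in all 3 EYFP animals and below 0 in all 4 tau animals. The summed markers of several cell types, given above, had the same signs. The mean log2 ratio of tau minus that of EYFP animals was -0.73, from -0.32 ± 0.25 (SD, n = 4) with tau and 0.41 ± 0.45 (SD, n = 3) with EYFP. Animal I, with 0.90, carried most of the EYFP mean. In a calculation added after seeing the data, the difference was -0.48 without I, from a mean of 0.17 over the other 2 EYFP animals, and -0.62 to -0.93 without any other single animal. The EYFP IP of I had an RNA integrity number of 4.2, and its ependymal and choroid plexus markers had a log2 ratio of 1.153, beside 0.30 in H and 0.26 in K. The part of either in the Cat value was not tested. The ratio of EYFP animal K was only 0.01, and the interaction did not pass (edgeR adjusted p 0.833). In tau pre-IP, Cat in animal L was 38.8 CPM, far below the 56.6 to 58.1 CPM of the other 3 animals. Of 30 groups of 4 values examined, this was the 1 with a sample set apart in this way, and chance marks about 1 group in 20.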

How the results depend on the processing

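The 5 calls of IP against pre-IP (Sod1, Gpx1, Gpx4, Mt2 and Mt3) were kept under both other scalings, the DESeq2 and limma tests, both other filters, the library-number covariate and the replicate block, and leaving out single animals gave 3 to 5 called genes. The 3 were Sod1, Mt2 and Mt3, without H, C or L, and Gpx4 was also lost without M. With EYFP animals only, 0 of 10 were called, and the log2 fold changes of these 5 were also smaller than in all 7 animals, with 0.37 for Sod1, 0.12 for Gpx1, 0.16 for Gpx4, 0.46 for Mt2 and 0.30 for Mt3. The replicate block (animals paired) changed no call of the 10 genes, and for Cat it gave 0.034. In tau IP against EYFP IP, DESeq2 called 1 gene (Gpx1), and the alternatives by edgeR and limma called 0 of 10.

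Signs reversed only for values that did not pass a test, near 0, and the cause was not tested. In tau IP against EYFP IP, Mt1 was -0.091 without scaling, -0.011 without a filter and -0.068 with the library-number covariate. Leaving out single animals, this comparison ranged from -0.20 to 0.15 for Mt1, from -0.38 to 0.054 for Fth1 and from -0.21 to 0.091 for Ftl1, and in pre-IP from -0.039 to 0.61 for Cat, from -0.012 to 0.16 for Gpx4, from -0.019 to 0.12 for Fth1 and from -0.025 to 0.11 for Ftl1. Limma gave -0.011 for Fth1 in pre-IP. In IP against pre-IP, Cat was 0.0038 with DESeq2 size factors, 0.0038 with the DESeq2 test, 0.085 with limma, 0.019 with a mean of at least 50 counts, 0.0052 with the library-number covariate, 0.33 in EYFP animals only, and -0.16 to 0.076 leaving out single animals. In the interaction, Sod2 was -0.061 without scaling and -0.17 with limma, and without single animals it ranged from -0.066 to 0.090, Mt1 from -0.37 to 0.021 and Mt2 from -0.089 to 0.31. Without scaling, the median of all genes in tau IP against EYFP IP shifted by -0.10.

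Over all genes, edgeR called 0 in tau IP against EYFP IP, but 128 without animal M and 113 without a filter, and DESeq2 called 342; the interaction gave 0, but 56 without M, 67 without a filter and 52 by DESeq2. In pre-IP, 0 were called, but 44 without a filter, and IP against pre-IP gave 5755 calls, but 1218 in EYFP animals only.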
